A study of Homo sapiens with 4 samples.

Results

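The genes described here are 194 protein-coding zinc finger genes with a ZNF symbol that lie on autosomes other than chromosome 19 and had a mean of at least 1 TPM over 4 RNA-seq libraries of 22Rv1 cells. TPM is a share of the library's transcripts, scaled by length. They are 194 of the 250 ZNF genes outside chromosome 19, and 194 of the 14018 genes tested in a table of 63241. 22Rv1 is an established cell line of castration-resistant prostate cancer. The cells received 40 nM JMC45, a small molecule directed at the kinase CDK9, or the DMSO vehicle for 12 h, with 2 libraries in each group. The series title and design name the agent D45 and call it a degrader of CDK9, and it was taken to be the same compound. Nothing in the labels says whether the 2 libraries of a group are separate cultures. The spread behind each p-value is that between these libraries and may be technical. All results come from a single cell line, 1 dose and 1 time.

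C2H2 zinc finger proteins read DNA through tandem fingers, each a short fold held by a zinc ion, and form the largest class of human transcription factors. Many carry a KRAB domain, which recruits the corepressor TRIM28 and through it the H3K9 methyltransferase SETDB1 and HP1 proteins, and is known for silencing transposable elements. Others carry a SCAN domain, which pairs such proteins with each other, or neither domain, and these include activators, chromatin complex subunits and RNA-binding proteins. Most KRAB zinc finger genes of the human genome lie in clusters on chromosome 19, and the genes described here lie outside it.

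Promoter sequence is shown for 4 of the genes, because they span the range of the results. ZNF740 and ZNF282 had the 2 largest decreases on the log scale, whereas ZNF664 and ZNF771 fell little. Each line gives the 250 bases before the annotated start, 5′ to 3′ on the gene's own strand, from RefSeq (GRCh38.p14). The windows are chr12:53180472-53180721 for ZNF740, chr7:149195296-149195545 for ZNF282, chr12:123972965-123973214 for ZNF664 and chr16:30407356-30407605 for ZNF771, all on the plus strand. Capitals mark the GC box GGGCGG, known to be bound by SP and KLF proteins, and the ETS core CCGGAAG, on either strand.
ZNF740: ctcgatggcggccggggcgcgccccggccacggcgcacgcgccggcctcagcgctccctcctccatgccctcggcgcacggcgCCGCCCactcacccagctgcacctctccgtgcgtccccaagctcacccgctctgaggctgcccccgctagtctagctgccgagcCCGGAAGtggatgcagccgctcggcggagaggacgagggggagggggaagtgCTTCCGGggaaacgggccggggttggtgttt
ZNF282: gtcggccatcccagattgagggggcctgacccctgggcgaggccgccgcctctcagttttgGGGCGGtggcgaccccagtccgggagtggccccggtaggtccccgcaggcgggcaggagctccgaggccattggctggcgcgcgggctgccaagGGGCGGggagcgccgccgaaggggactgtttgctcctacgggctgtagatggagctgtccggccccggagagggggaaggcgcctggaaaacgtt
ZNF664: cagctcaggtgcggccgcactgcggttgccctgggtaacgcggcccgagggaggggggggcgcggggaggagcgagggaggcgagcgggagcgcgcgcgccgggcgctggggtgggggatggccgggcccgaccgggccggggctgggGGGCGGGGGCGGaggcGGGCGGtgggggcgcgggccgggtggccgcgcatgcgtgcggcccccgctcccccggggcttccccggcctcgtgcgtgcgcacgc
ZNF771: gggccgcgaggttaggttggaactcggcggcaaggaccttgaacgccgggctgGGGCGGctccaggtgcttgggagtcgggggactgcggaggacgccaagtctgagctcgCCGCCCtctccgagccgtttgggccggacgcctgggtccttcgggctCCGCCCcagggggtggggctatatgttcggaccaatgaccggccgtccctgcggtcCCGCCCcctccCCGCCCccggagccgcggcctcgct
All 4 windows are GC-rich, at 74.0%, 72.0%, 84.4% and 73.2% G or C in that order. The ZNF740 window has 1 GC box and 2 ETS cores, and ZNF282 has 2 GC boxes and no ETS core. The windows of ZNF664 and ZNF771 have 3 and 5 GC boxes and also no ETS core.

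The mean TPM that chose the genes includes both groups. A gene that was low after JMC45 could pass on its vehicle level alone, and 66 of the 194 had a JMC45 mean below 1 TPM, so counts over the 194 describe these genes and support nothing further. Just inside the threshold, ZNF484 measured 2.03 and 1.63 TPM in vehicle and 0.21 and 0.14 TPM in JMC45. ZNF280B measured 1.89 and 1.43 TPM against 0.47 and 0.42 TPM, and ZNF19 1.92 and 2.11 TPM against 0.10 and 0.13 TPM. Just outside it, ZNF775 measured 1.71 and 1.99 TPM in vehicle and 0.11 and 0.14 TPM in JMC45, ZNF594 2.17 and 1.30 against 0.05 and 0.21 TPM, and ZNF774 1.80 and 1.20 against 0.41 and 0.29 TPM. These 6 genes all had both JMC45 libraries below both vehicle libraries, on either side of the threshold. Of the 56 ZNF genes left out, 9 were listed at 0 in all 4 libraries. Among the other 47, 28 had both JMC45 values below both vehicle values and 1 had both above. That share was not counted over all genes with a mean below 1 TPM, so the 28 only describe these genes. Tested with no filter on low values, 20 of these 47 were called lower and 0 higher, where 18.6% of the 17082 genes with a mean below 1 TPM and a value above 0 in some library were called lower.

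The zinc finger transcripts took a smaller share of the RNA after JMC45. Their summed level was 2827.5 and 2502.5 TPM in the vehicle libraries and 807.57 and 754.51 TPM in the JMC45 libraries, which is 0.283% and 0.250% of each vehicle library against 0.0808% and 0.0755% of each JMC45 library. The median gene measured 8.665 and 7.465 TPM in vehicle and 1.71 and 1.54 TPM in JMC45. All 194 genes were at 1 TPM or more in both vehicle libraries, against 132 and 123 in the JMC45 libraries. The filter on the mean favours this contrast for genes that fell. Over the whole table, 15295 and 14875 genes were at 1 TPM or more in vehicle, against 11821 and 11629 in JMC45. The groups did not overlap in any of these totals. In bulk RNA, fewer cells that express a gene and less RNA of it per cell cannot be told apart. TPM also keeps no read depth and no absolute amount, so each value is a share of its library, and mitochondrially encoded genes took 20.4% and 20.1% of vehicle TPM and 26.6% and 29.3% of JMC45 TPM. With those genes left out of the totals, 189 of the 194 genes were called lower, with a median log2 change of -1.62.

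Gene by gene, 190 of the 194 fell on the log2(TPM + 1) scale and 0 rose (limma, Benjamini-Hochberg adjusted p under 0.05 over all 14018 genes). Of all tested genes 80.7% were called lower and 4.25% higher, so a decrease was also the common outcome in the library as a whole. The median log2 change of the zinc finger genes was -1.65, against -1.10 for all tested genes and -1.13 for the protein-coding ones. At least 2-fold decreases were called for 169 genes (54.3% of all tested genes). Both JMC45 libraries lay below both vehicle libraries for 193 genes (85.7% of all tested genes), with ZNF362 the exception. The log2(TPM + 1) scale understates the change of genes of low TPM, so the share of vehicle TPM left after JMC45 is given beside it. The median zinc finger gene kept 20.95% of its vehicle mean, with a middle range of 12.0% to 33.3%, and the median tested gene kept 38.7%. Fewer than 25% of the vehicle level was left for 120 genes (30.4% of all tested genes), and fewer than 10% for 37 (7.2% of all tested genes). More than 50% was left for 12 genes (37.4% of all tested genes).

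The direction of these counts rests partly on the scaling. A second scaling by the median of ratios to a reference library, called ratio scaling from here on, sets the typical gene to no change. It moved the median of all genes from -1.10 to -0.02 and called 134 of the zinc finger genes lower and 10 higher, where 35.5% of all tested genes were called lower and 34.9% higher. Their median there was -0.70. Quantile scaling, which gives all libraries 1 distribution, called 104 lower and 18 higher (32.8% and 33.6% of all tested genes) with a median of -0.44. Relative to the median of all genes, 157 of the 194 lay below it on the TPM scale and 156 under ratio scaling. ZNF genes on chromosome 19, chosen by the same rule, gave 195 lower and 0 higher of 199 with a median of -1.64 on the TPM scale. Under ratio scaling 141 of those were lower and 12 higher, with a median of -0.81. Whether the genes on and off chromosome 19 differ was not tested.

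**Figure D1:**
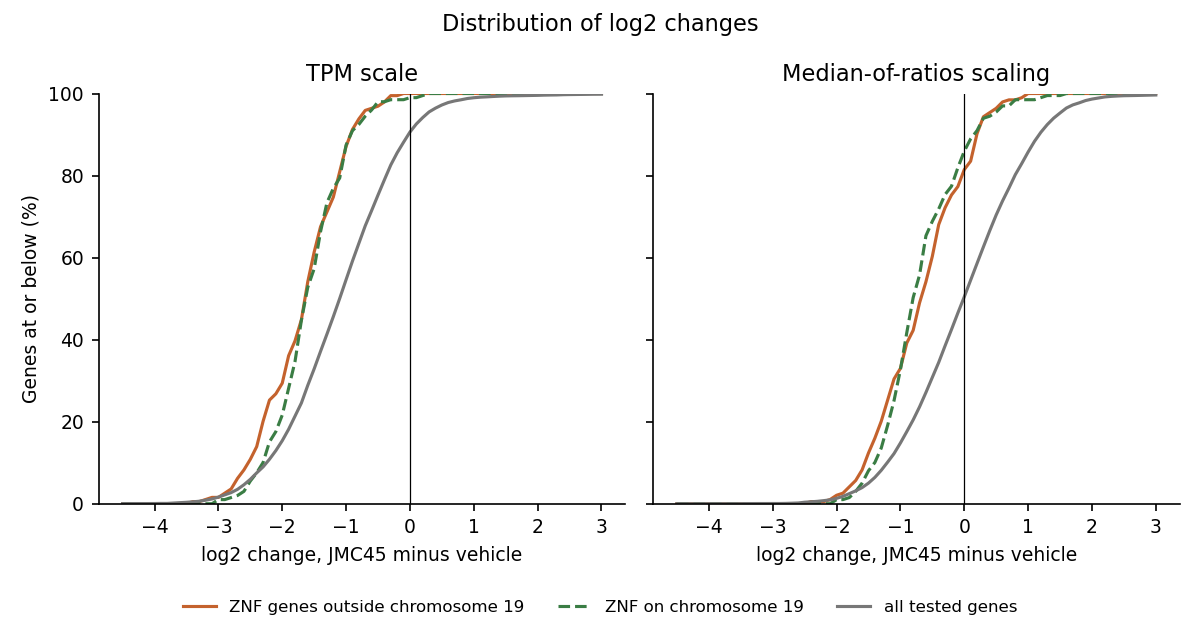
Share of genes (%) at or below each log2 change, JMC45 minus vehicle, on the TPM scale (left) and under ratio scaling (right), for 194 ZNF genes outside chromosome 19, 199 on chromosome 19 and all 14018 tested genes. Both ZNF curves lie to the left of that of all genes through most of their range, with medians of -1.65, -1.64 and -1.10 on the left, and -0.70, -0.81 and -0.02 on the right.

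The share left and the log2 change differed in how they went with level. Among the 96 genes with a mean of 1 to 5 TPM the median share left was 17.3%, among the 85 with 5 to 20 TPM it was 23.1%, and among the 13 with at least 20 TPM it was 33.7%. All tested genes had the same order, with 31.6%, 33.8% and 56.3% in the same bands, and in each band the zinc finger genes had the smaller share. Across the 194 genes, the mean TPM correlated with the share left at Spearman's rho = 0.31, against 0.29 across 13987 tested genes. The points share the same 4 libraries and the mean enters both measures, so the value is a description. The log2(TPM + 1) change did not follow this order, with medians of -1.59, -1.76 and -1.55 in the 3 bands of zinc finger genes and rho = -0.16 with the mean TPM. Vehicle and JMC45 means correlated at rho = 0.79 across the 194 genes, so the ranking of the genes by level was largely kept. The 5 most abundant genes held 20.03% of the summed zinc finger TPM in vehicle and 32.8% in JMC45.

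**Figure D2:**
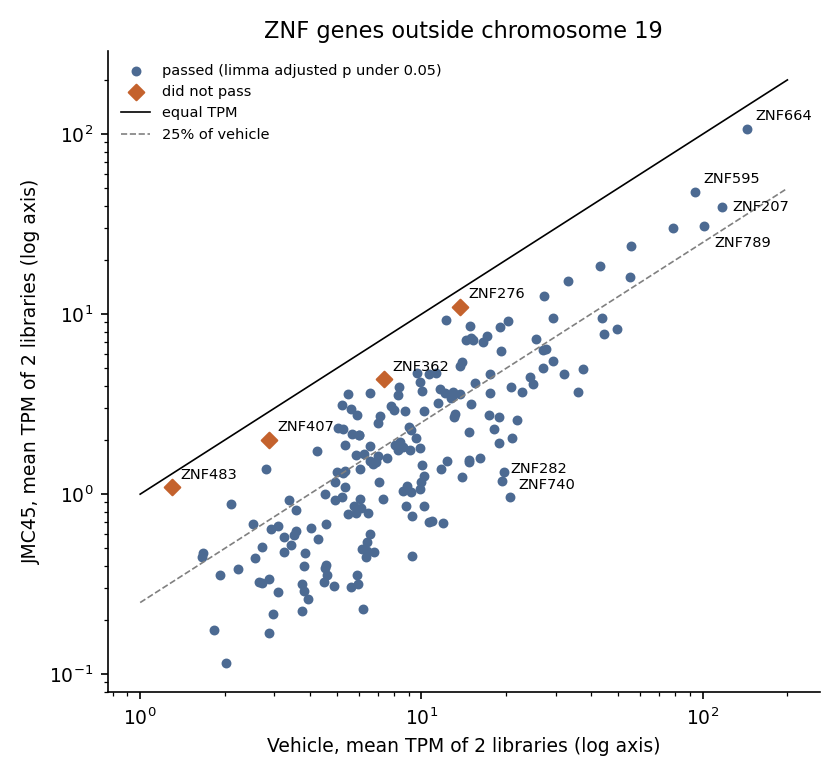
Mean TPM of each of the 194 genes in vehicle (x, log axis) and in JMC45 (y, log axis), 2 libraries each, with lines for equal TPM and for 25% of vehicle. All 194 points lie below the line of equal TPM, 120 of them below the 25% line, and the 4 genes that did not pass the test are drawn as diamonds.

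Those 5 genes kept between 30.7% and 74.8% of their vehicle level. ZNF664 (ENSG00000179195, chromosome 12), the most abundant, measured 152.4 and 134.6 TPM in vehicle and 102.2 and 112.4 TPM in JMC45. Its groups did not overlap, yet 74.8% of the vehicle level was left, and its log2 change was -0.41 (SE 0.09, limma adjusted p = 0.00456). Under ratio scaling ZNF664 stood at 0.93 and was called higher, and under quantile scaling at 0.11. ZNF207, which encodes the kinetochore and spindle protein BuGZ that loads BUB3, measured 120.3 and 113.7 TPM in vehicle and 38.0 and 40.9 TPM in JMC45 (117 ± 4.68 and 39.4 ± 2.00, SD, n = 2). Its log2 change was -1.55, and -0.21 under ratio scaling, where it did not pass. ZNF789 went from 103.8 and 97.7 TPM to 32.5 and 29.4 TPM, a log2 change of -1.67, and still fell under ratio scaling at -0.35. ZNF595 had 105.0 and 83.2 TPM in vehicle and 46.4 and 49.6 TPM in JMC45. ZNF595 kept 51.0%, fell by 0.95 on the log2 scale and was called higher, at 0.38, under ratio scaling. ZNF706, a gene of a small protein with 1 finger by the pattern used here, had 79.8 and 76.9 TPM in vehicle, against 34.1 and 26.4 TPM in JMC45, and changed by -1.35, or -0.03 under ratio scaling. None of these 5 had overlapping groups on the TPM scale.

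The largest log2 decreases are given for genes with a mean of at least 5 TPM. That cut leaves out genes of lower level, such as ZNF691 at -2.82. ZNF740 (ENSG00000139651, chromosome 12), a short protein with 2 fingers by the pattern used here, measured 20.3 and 20.9 TPM in vehicle and 1.03 and 0.89 TPM in JMC45. Both JMC45 libraries were thus far below both vehicle libraries, at 20.6 ± 0.445 TPM against 0.960 ± 0.0990 TPM (SD, n = 2), a 21.4-fold lower mean. The log2 change was -3.46 (SE 0.12, limma adjusted p = 1.0e-05), and -2.45 under ratio scaling. ZNF282 (ENSG00000170265, chromosome 7), a KRAB protein first described as a binder of the U5 repressive element of the leukemia virus HTLV-1, measured 18.5 and 20.1 TPM in vehicle and 1.40 and 0.97 TPM in JMC45. It kept 6.14% of its vehicle level, and fell by 3.22 on the log2 scale (SE 0.15, limma adjusted p = 1.29e-05), and its change under ratio scaling was -2.19. ZNF672, on chromosome 1, went from 18.9 and 20.5 TPM to 1.53 and 1.13 TPM, a log2 change of -3.15. ZNF639, on chromosome 3 and also known as ZASC1, went from 37.6 and 34.6 TPM to 4.16 and 3.19 TPM, a log2 change of -3.00.

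The other 6 of the 10 largest decreases among genes with a mean of at least 5 TPM ranged from -2.94 to -2.74 on the log2 scale. They were ZNF232, a SCAN gene on chromosome 17, at 12.5 and 11.4 TPM in vehicle against 0.81 and 0.57 TPM, and ZNF75A at 22.5 and 19.6 against 1.91 and 2.20 TPM. ZNF212 and ZNF747, both KRAB genes, had 11.4 and 10.4 TPM against 0.64 and 0.78 TPM, and 10.6 and 10.7 TPM against 0.71 and 0.69 TPM. ZNF7 measured 19.9 and 17.8 TPM in vehicle and 2.16 and 1.67 TPM in JMC45, and ZNF830, a single-finger protein found with splicing factors, 14.4 and 13.6 against 1.45 and 1.04 TPM. All 10 genes stayed called lower under ratio scaling, where their log2 changes ranged from -2.45 to -1.66. By share of the vehicle level, the smallest was in ZNF646 on chromosome 16, which measured 6.83 and 5.61 TPM in vehicle and 0.27 and 0.19 TPM in JMC45, a 27.0-fold lower mean that left 3.70%. The next by share left were ZNF740 at 4.67%, ZNF691 at 4.93%, ZNF200 at 5.31% and ZNF670 at 5.45%. Of these, ZNF646, ZNF691, ZNF200 and ZNF670 had means below the 5 TPM asked of the genes above, and were chosen after their values were seen.

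**Figure D3:**
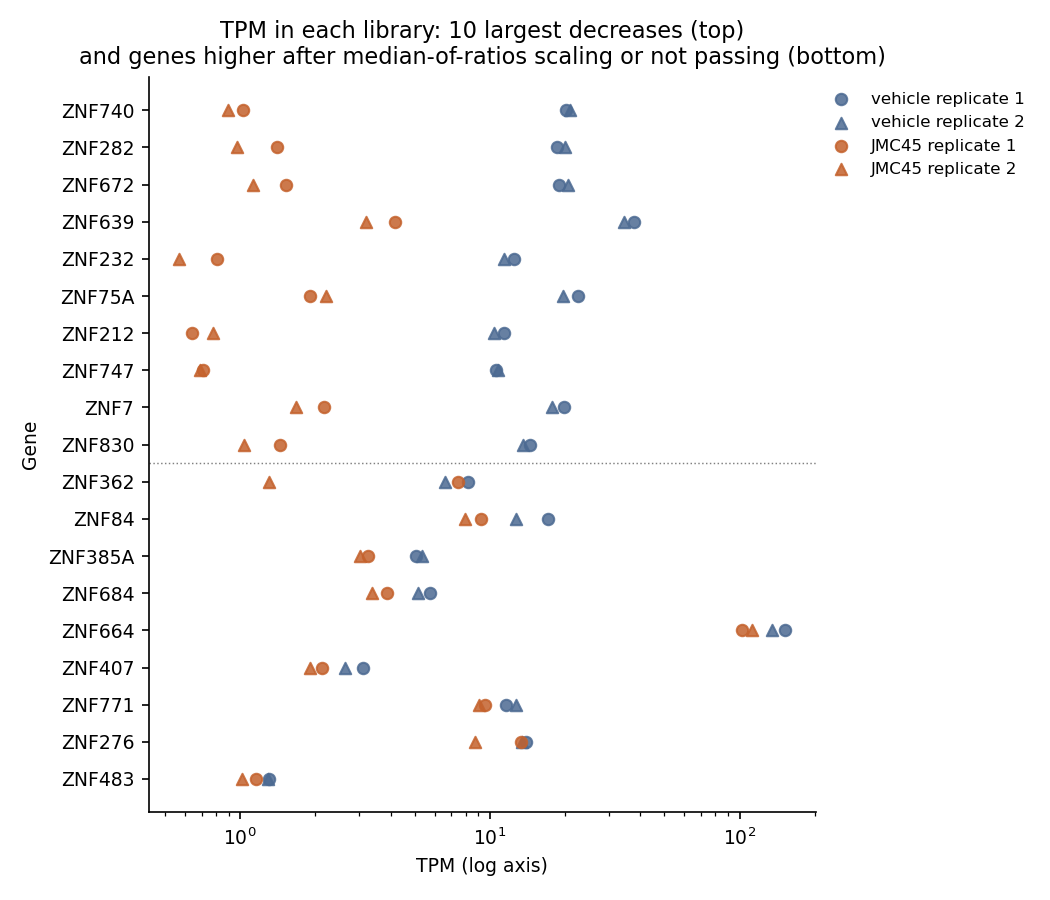
TPM of each library (x, log axis; blue vehicle, orange JMC45, circles replicate 1 and triangles replicate 2) for the 10 genes with the largest log2 decrease among those with a mean of at least 5 TPM (above the dotted line) and for 9 others that were called higher under ratio scaling or did not pass the test on TPM (below it). Above the line the groups are far apart, as for ZNF740 at 20.3 and 20.9 against 1.03 and 0.89 TPM, whereas below it they are close, and for ZNF362 they overlap.

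Genes were also listed by the role of their proteins. Of the 41 listed 39 were among the 194, and all 39 fell on the TPM scale (80.7% of all tested genes). The other 2, ZNF516 and ZNF827, had means below 1 TPM, and ZNF827 measured 0.80 and 0.60 TPM in vehicle and 0.41 and 0.12 TPM in JMC45. Among sequence-specific activators and chromatin binders, 6 of 6 fell, with a median of -1.62. Under ratio scaling, where 35.5% of all tested genes were lower, 6 of 6 were lower. ZNF281, which binds GC-rich promoters and is studied in stem cells and epithelial plasticity, had 11.03 and 9.35 TPM in vehicle and 0.83 and 0.90 TPM in JMC45. Its log2 change of -2.58 (SE 0.14, limma adjusted p = 2.01e-05) was the largest of the 6, and its groups were far apart. ZNF410, known for activating CHD4 through clustered binding sites, went from 26.7 and 27.3 TPM to 5.34 and 4.72 TPM, a log2 change of -2.22. CHD4 itself measured 74.6 and 71.5 TPM in vehicle and 13.99 and 16.29 TPM in JMC45, a log2 change of -2.20. ZNF143, an activator of snRNA and many protein-coding promoters, was at 12.6 and 11.7 TPM in vehicle and at 3.50 and 3.80 TPM in JMC45, a log2 change of -1.499. ZNF384, ZNF148 and ZNF335 changed by -1.72, -1.52 and -1.45. The 6 genes kept between 8.49% and 30.1% of their vehicle level.

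Of the genes whose proteins work with corepressor complexes, 6 of the 8 listed reached 1 TPM. Of these 6, 6 fell (80.7% of all tested genes), with a median of -1.44. Under ratio scaling 3 were lower and 0 higher (35.5% and 34.9% of all tested genes). ZNF217, an amplified oncogene in breast cancer that binds CoREST, LSD1 and CtBP, had 55.6 and 43.6 TPM in vehicle and 9.08 and 7.39 TPM in JMC45. It kept 16.6%, and fell by 2.45 on the log2 scale (SE 0.15, limma adjusted p = 2.67e-05), and its change under ratio scaling was -1.17. ZNF687, ZNF592 and ZNF532 are related proteins found in one complex with ZMYND8, and they moved by unequal amounts. ZNF687 went from 16.3 and 16.1 TPM to 1.64 and 1.55 TPM, a log2 change of -2.73. ZNF592 went from 21.72 and 19.03 TPM to 9.10 and 9.16 TPM, a log2 change of -1.07. ZNF532, the fusion partner of NUTM1 in some NUT carcinomas, went from 6.73 and 4.55 TPM to 2.83 and 3.12 TPM, a log2 change of -0.72 (limma adjusted p = 0.012). The call for ZNF532 ended when vehicle replicate 1 (-0.48, limma adjusted p = 0.0516) or JMC45 replicate 1 (-0.67, limma adjusted p = 0.0727) was left out. Under ratio scaling ZNF592 and ZNF532 stood at 0.18 and 0.36 and did not pass. Whether the 3 differ from each other was not tested. ZNF219 changed by -1.65, and ZNF644, which brings the methyltransferases EHMT1 and EHMT2 to chromatin together with WIZ, by -1.22.

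ZNF318, listed on its own, had 8.27 and 6.36 TPM in vehicle and 0.94 and 0.93 TPM in JMC45. It kept 12.8% of its vehicle level, and its log2 change was -2.09 (SE 0.16, limma adjusted p = 6.1e-05), or -1.15 under ratio scaling.

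Among the 12 genes of RNA, ribosome, mitosis and SUMO factors, 12 of 12 fell (80.7% of all tested genes), with a median of -1.62. Under ratio scaling 7 were lower and 1 higher (35.5% and 34.9% of all tested genes). ZNF622, a factor of late large-subunit ribosome assembly, had 24.9 and 24.9 TPM in vehicle and 4.59 and 3.62 TPM in JMC45, a log2 change of -2.35. ZNF326, which links splicing to elongation by RNA polymerase II in the DBIRD complex, had 31.7 and 27.0 TPM against 5.22 and 5.82 TPM, a log2 change of -2.22. The nucleolar ZNF330 and the ribosomal protein partner ZNF277 changed by -2.09 and -1.95. The smaller changes of this group included ZNF598, the ubiquitin ligase that senses collided ribosomes, at 18.4 and 14.7 TPM in vehicle against 7.20 and 6.89 TPM, a log2 change of -1.12. ZNF638 and ZNF106, both RNA-binding, changed by -1.19 and -1.01, and under ratio scaling ZNF598, ZNF638 and ZNF106 stood between 0.12 and 0.13 and did not pass. ZNF385A, a p53 partner that also binds RNA, had 5.05 and 5.37 TPM in vehicle and 3.26 and 3.02 TPM in JMC45. It was the 1 gene of the 12 called higher under ratio scaling, at 0.50, against -0.59 on the TPM scale. The SUMO ligase ZNF451 changed by -1.57, the double-stranded RNA binder ZNF346 by -1.72 and the ribosome assembly factor ZNF593 by -1.67.

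Domains were assigned by a sequence score from the longest GENCODE coding transcript of each gene, so a partial or diverged domain can be missed. Of the genes with a KRAB and no SCAN domain, 85 of 85 fell (80.7% of all tested genes), with a median of -1.67 and 16.8% of the vehicle level left. Of the 8 with both domains 7 fell, with a median of -1.54 and 21.6% left. All 10 with a SCAN domain alone fell, with a median of -2.01 and 17.8% left. Of the 91 with neither domain 88 fell, with a median of -1.57 and 26.2% left. Under ratio scaling these classes had 67, 5, 9 and 53 genes lower and 4, 1, 0 and 5 higher, in the same order, where 35.5% of all tested genes were lower and 34.9% higher. The classes also differed in level, with median TPM of 4.21, 3.26, 5.27 and 6.91 over the 4 libraries, and the part of level in their shares left was not tested. The number of fingers had little relation to the change: medians were -1.66 for the 44 genes with 0 to 4 fingers, -1.74 for the 66 with 5 to 9, -1.57 for the 56 with 10 to 14 and -1.52 for the 28 with 15 or more. Across the 194 genes, rho with the share left was -0.04 for the number of fingers, 0.30 for the number of exons and 0.32 for the length of the gene. These are descriptions across genes, which share the 4 libraries and are not independent replicates.

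Among KRAB proteins with a described role, 5 of 5 fell (80.7% of all tested genes), with a median of -2.17. Under ratio scaling, where 35.5% of all tested genes were lower, 5 of 5 were lower. Beside ZNF282, these were ZNF202, a repressor of lipid metabolism genes, which went from 6.82 and 6.01 TPM to 0.45 and 0.64 TPM, and ZNF746, the parkin substrate PARIS, from 10.5 and 9.64 TPM to 1.5 and 1.39 TPM. Their log2 changes were -2.26 and -2.17. ZNF445, which protects genomic imprints, went from 7.94 and 6.24 TPM to 1.06 and 1.27 TPM. ZNF10, the source of the KRAB domain used in CRISPR interference, went from 3.27 and 2.59 TPM to 0.68 and 0.60 TPM, the smallest log2 change of the 5 at -1.26. Of the 9 listed SCAN genes 9 fell (80.7% of all tested genes), with a median of -1.76. Under ratio scaling 7 were lower and 0 higher (35.5% and 34.9% of all tested genes). ZNF24, the most abundant of them, had 48.9 and 40.5 TPM in vehicle and 8.23 and 7.19 TPM in JMC45, and its log2 change was -2.39 (SE 0.12, limma adjusted p = 1.67e-05). ZNF263, known for binding at many GC-rich promoters, went from 8.75 and 8.39 TPM to 1.89 and 1.76 TPM, and the cancer-testis gene ZNF165 from 4.59 and 4.00 TPM to 0.64 and 0.49 TPM. Their log2 changes were both -1.76. ZNF500 changed least of the 9, at -0.93, and stood at 0.12 under ratio scaling, where it did not pass.

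**Figure D4:**
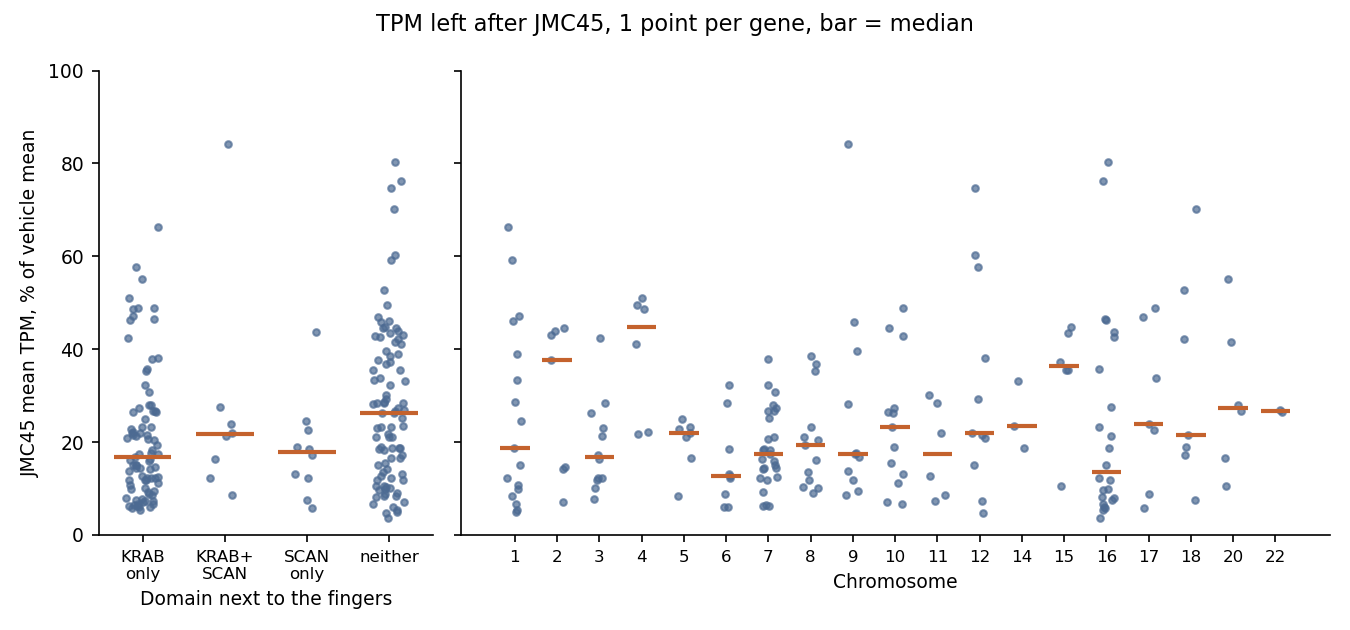
Share of the vehicle mean TPM left after JMC45 (%), 1 point per gene with the median as a bar, by the domain beside the fingers (left) and by chromosome (right). Medians were 16.8%, 21.6%, 17.8% and 26.2% for the 4 domain classes, and between 12.8% on chromosome 6 and 44.8% on chromosome 4 among the chromosomes.

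Outside chromosome 19, chromosomes 7 and 16 held the most genes. All 27 on chromosome 7 fell (80.7% of all tested genes), with a median of 17.4% left, and 23 of 24 on chromosome 16, with 13.6%. Medians were lowest on chromosome 6, where 9 of 9 fell and 12.8% was left, and highest on chromosome 4, where 6 of 6 fell and 44.8% was left. On chromosome 4, 2 of the 6 genes were lower under ratio scaling and 1 was higher, where 35.5% and 34.9% of all tested genes were. Zinc finger genes with starts at most 500 kb apart formed 11 runs of 4 or more genes, with 67 genes in all, by their order in GENCODE. The runs, and the genes named from them, were chosen after values were seen. Genes of one run could differ widely. In the run of 10 from ZNF48 to ZNF646 on chromosome 16, with a median of 10.8% left, ZNF646 kept 3.70% and ZNF771 76.2%. In the run of 6 from ZNF605 to ZNF268 on chromosome 12, the adjacent KRAB genes ZNF26 and ZNF84 kept 7.21% and 57.7%. ZNF26 measured 5.06 and 3.95 TPM in vehicle and 0.43 and 0.22 TPM in JMC45. ZNF84 measured 17.1 and 12.7 TPM against 9.24 and 7.92 TPM. The run of 4 on chromosome 4 was the highest by median, at 49.1%, where ZNF595, ZNF721 and ZNF141 kept 51.0%, 49.5% and 48.6% and ZNF718, between them, kept 22.1%. The run of 10 from ZNF786 to ZNF862 on chromosome 7 had a median of 12.4% and ranged from 6.14% in ZNF282 to 38.0% in ZNF783. KRAB genes of one run often have near-identical stretches, and how shared reads were counted is not stated in the sources used here, which leaves their values uncertain.

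For some genes the direction of the call changed with the scaling. Called lower on the TPM scale and higher under ratio scaling were 7 genes, namely ZNF595, ZNF84, ZNF337, ZNF385A, ZNF684, ZNF664 and ZNF771. Of all tested genes, 34.9% were called higher under ratio scaling, whatever their call on the TPM scale. ZNF771 had 11.6 and 12.8 TPM in vehicle and 9.52 and 9.06 TPM in JMC45, with no overlap. Its log2 change was -0.36 (SE 0.11, limma adjusted p = 0.019), and 0.88 under ratio scaling. Leaving out vehicle replicate 2 (-0.29), JMC45 replicate 1 (-0.39) or JMC45 replicate 2 (-0.32) ended the TPM call for ZNF771, as did a table with the mitochondrially encoded genes left out (-0.23). ZNF684 had 5.77 and 5.16 TPM in vehicle and 3.87 and 3.37 TPM in JMC45, a log2 change of -0.49 on the TPM scale and 0.62 under ratio scaling. Leaving out vehicle replicate 1 (-0.42) or JMC45 replicate 2 (-0.41) ended its TPM call.

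The other 4 genes did not pass on the TPM scale, and they are named because they did not. ZNF276 had 13.9 and 13.5 TPM in vehicle and 13.3 and 8.72 TPM in JMC45, a log2 change of -0.32 (limma adjusted p = 0.156). Without JMC45 replicate 1 it passed, at -0.60 (limma adjusted p = 0.0138). Its exons share 2302 bases with FANCA on the opposite strand, a DNA repair gene that measured 26.1 and 29.1 TPM in vehicle and 36.9 and 32.3 TPM in JMC45, and without knowing whether strand was used in counting the 2 cannot be told apart. ZNF362 was the 1 gene with overlapping groups, with 8.15 and 6.59 TPM in vehicle and 7.44 and 1.30 TPM in JMC45. Its log2 change was -0.92 (SE 0.57, limma adjusted p = 0.173), and it was -1.86 without JMC45 replicate 1 (limma adjusted p = 0.00162) and 0.02 without JMC45 replicate 2, so the JMC45 libraries disagreed. The replicate number as a block also made it pass (limma adjusted p = 0.0364). ZNF483 had 1.30 and 1.29 TPM in vehicle and 1.16 and 1.02 TPM in JMC45, and kept 84.2%, the most of the 194. ZNF407 had 3.09 and 2.64 TPM against 2.12 and 1.90 TPM, a log2 change of -0.36 (limma adjusted p = 0.0592), and passed with no intensity trend (limma adjusted p = 0.029). With the mitochondrial total held equal, ZNF276, ZNF362 and ZNF407 passed as lower, at -0.74, -1.28 and -0.69 (limma adjusted p = 0.00852, 0.037 and 0.00399). Under ratio scaling ZNF276, ZNF483 and ZNF407 were called higher, at 0.93, 0.60 and 0.59.

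Libraries of one group agreed for most of the genes. The JMC45 libraries lay more than 2-fold apart for 8 genes, 4.12% against 4.44% of all tested genes, and the vehicle libraries for 0. Vehicle replicate 1 was above vehicle replicate 2 for 160 of the 194, where 70.2% of all tested genes were, and JMC45 replicate 1 above JMC45 replicate 2 for 124 (59.3% of all tested genes). Exons of 99 of the genes overlapped another annotated gene, and 41 of these overlapped a tested one. The 95 genes without overlap gave 92 lower and 0 higher (80.7% and 4.25% of all tested genes), a median of -1.61 and 18.8% left. ZNF740 shares 106 exonic bases with CSAD on the opposite strand, which measured 20.7 and 17.2 TPM in vehicle and 24.6 and 20.3 TPM in JMC45, a log2 change of 0.23 that did not pass. ZNF771 shares 666 with DCTPP1, which fell by 0.53 on the log2 scale.

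The promoter table matched 164 of the 194 genes, with 222 windows. These windows were searched whole and are longer than the 250 bases shown for the 4 genes above. GGGCGG, searched on both strands, was in 58.6% of the zinc finger windows, 45.0% of all 35116 windows and 66.7% of the 14557 windows of tested genes. CCGGAAG was in 31.5% of the zinc finger windows, 10.3% of all windows and 17.8% of those of tested genes, and 44% of the windows of chromosome 19 ZNF genes. ACTACAA, from the element that ZNF143 is known to bind, was in 6.31%, against 2.77% of all windows and 3.5% of those of tested genes. CCAAT was in 42.8%, 34.6% and 35.4%, GCGCATG, from the NRF1 element, in 13.1%, 4.43% and 6.95%, AAGATGG, from the YY1 element, in 4.95%, 5.84% and 7.32%, CACGTG in 6.76%, 7.26% and 9.57%, and TATAAA in 5.86%, 11.5% and 6.08% of the zinc finger windows, all windows and windows of tested genes. The 107 genes with GGGCGG in any window kept a median of 18.7% and the 57 without it 22.1%. The 66 genes with CCGGAAG kept 18.8% and the 98 without it 21.3%. Genes with AAGATGG kept 19.8% and those without it 21.0%. The order was the other way for the 24 genes with GCGCATG, at 24.98% against 18.96% for the 140 without it. The same held for CACGTG, at 23.5% against 20.95%, and for CCAAT, at 21.3% against 18.9%. It also held for ACTACAA, at 21.41% against 20.85%, and for TATAAA, at 21.99% against 20.64%. By median log2 change the order for CACGTG turned, at -1.673 with it and -1.65 without it. None of these differences was tested. A match says only that these letters are in the window. Median GC content was 62.3% in the zinc finger windows, 58.7% in all windows and 65.0% in those of tested genes, and across the 164 genes it correlated with the share left at rho = 0.13.

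The proteins that KRAB zinc fingers work through were measured in the same libraries. Of 14 KRAB cofactor genes 13 fell and 1 rose (80.7% and 4.25% of all tested genes), with a median of -1.36. Under ratio scaling 5 were lower and 3 higher (35.5% and 34.9% of all tested genes). TRIM28, the corepressor that KRAB binds, had 523.8 and 507.7 TPM in vehicle and 161.3 and 144.7 TPM in JMC45, a log2 change of -1.75 and of -0.40 under ratio scaling. It stayed more abundant per length than any of the zinc finger genes in every library. SETDB1 had 42.2 and 38.0 TPM in vehicle and 15.8 and 16.2 TPM in JMC45, a log2 change of -1.27, or 0.03 under ratio scaling. UHRF1, which guides maintenance DNA methylation, had the largest decrease of the list at -2.96. HDAC1 was the 1 gene that rose, from 221.1 and 224.8 TPM to 255.1 and 262.0 TPM, a log2 change of 0.21 (limma adjusted p = 0.0115). The HDAC1 call was lost without JMC45 replicate 2 and with no intensity trend. The 3 cofactor genes higher under ratio scaling were HDAC1, CBX1 and CHD3, and the list had 0 higher once the mitochondrial total was held equal. A list for HUSH and MORC silencing of transposable elements, which works with TRIM28, held 6 genes, RESF1 among them. Of these 6, 6 fell (80.7% of all tested genes), with a median of -2.07. Under ratio scaling 4 were lower and 0 higher (35.5% and 34.9% of all tested genes). TASOR, the HUSH scaffold, went from 22.6 and 23.5 TPM to 2.22 and 1.25 TPM, a log2 change of -3.16. MORC2, an ATPase that works with HUSH, changed by -2.91, and MPHOSPH8, the HUSH chromodomain protein, by -1.20. Of 8 partners of zinc fingers without KRAB, 8 fell (80.7% of all tested genes), with a median of -1.38. Under ratio scaling 2 were lower and 2 higher (35.5% and 34.9% of all tested genes). RCOR1 and ZMYND8 changed most of the 8 partners, by -2.10 and -1.89, and EHMT2 least, by -0.83.

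The cells' labelled origin was read from markers. All 10 listed luminal prostate markers reached a mean of 1 TPM and were tested. Among them the pioneer factor FOXA1 measured 134.3 and 121.5 TPM in vehicle and 32.7 and 28.5 TPM in JMC45, and the luminal keratin KRT8 198.2 and 208.2 TPM in vehicle and 160.3 and 165.4 TPM in JMC45. Of 6 fibroblast markers 2 were tested, and all 6 together summed to between 6.38 and 7.83 TPM in each of the 4 libraries. None of 6 leukocyte markers and none of 4 endothelial markers reached a mean of 1 TPM, and CD3E, KDR and CDH5 were at 0 in all libraries.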

How the data were processed

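RNA of 22Rv1 cells was sequenced from poly(A)-selected, stranded libraries, per the labels' protocols. Per the file headers, the authors deposited TPM for each gene in each library. Their tools were fastp, HISAT2 and StringTie, per the submitters' processing notes, with neither version nor role. The sources used here do not state genome build, annotation or use of strand, and depth is unknown. The control columns were matched to the vehicle libraries by name and number. Symbols came from a table of Ensembl gene names, which matched 62666 of 63241 genes (575 did not match), and 50 lines without values were left out. Gene type, chromosome, exons and coding sequences came from GENCODE 29, in which all 194 genes were found.

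Genes with a mean of at least 1 TPM (14018) were tested as log2(TPM + 1) in R 4.3.3 with limma 3.58.1 (two-sided, intensity trend, no block), with Benjamini-Hochberg adjustment over all of them. The test was also run on simulated data in which few genes changed. Most genes fell in the real data, so that run does not show how the test behaves here. KRAB and SCAN domains were assigned by log-odds profiles built on the ZNF proteins, translated from these sequences, that hold a domain's pattern, and fingers by the C2H2 pattern. Summaries used numpy 2.4.6 and pandas 2.3.3 under Python 3.11.15, and figures matplotlib 3.10.9. Other scalings (median of ratios, quantile), pseudocount, filters, the replicate block and each library left out were tried, 12 settings in all, and 2 more were chosen after seeing the data.

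Members and lists were chosen with earlier results of these data known. The text names the members of 6 role lists, the 10 largest decreases among called genes with a mean of at least 5 TPM and groups that do not overlap, the 5 of highest mean, 3 genes on each side of the threshold, and up to 5 with opposite calls under the 2 scalings. Values of a few marker genes are not reported here.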

Additional observations from a re-analysis of the deposited data

How the results depend on the processing

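The counts depend on the scaling. The median over the 194 genes was -2.20 with a pseudocount of 0.1, -0.70 under ratio scaling, -0.44 under quantile scaling and -1.99 once the mitochondrial total was held equal, and ranged from -1.72 to -1.52 with 1 library left out. Genes lower numbered 96 of 98 at a mean of at least 5 TPM and 92 of 95 without exon overlap, both fewer because fewer genes were counted, and 104 under quantile scaling. Genes higher numbered 10 under ratio scaling and 18 under quantile scaling. Over all genes, ratio scaling gave 4888 higher and 4981 lower, quantile scaling 4716 and 4603, and the mitochondrial total held equal 181 higher. KRAB cofactors had 5 lower and 3 higher under ratio scaling, 3 higher under quantile scaling, 0 higher with no intensity trend or the mitochondrial total held equal, and 0 to 1 higher with 1 library left out. Partners of genes without KRAB had 2 lower and 2 higher under ratio scaling, and 4 lower and 2 higher under quantile scaling.

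Among the 62 genes named by rule or for not passing, log2 changes above 0 under ratio scaling were 0.12 for ZNF598, 0.12 for ZNF500, 0.13 for ZNF638, 0.13 for ZNF106, 0.17 for ZNF362, 0.18 for ZNF592, 0.36 for ZNF532, 0.38 for ZNF595, 0.50 for ZNF385A, 0.52 for ZNF84, 0.59 for ZNF407, 0.60 for ZNF483, 0.62 for ZNF684, 0.88 for ZNF771, 0.93 for ZNF664 and 0.93 for ZNF276. Among the same 62, under quantile scaling they were 0.11 for ZNF664, 0.13 for ZNF280B, 0.14 for ZNF644, 0.23 for ZNF598, 0.23 for ZNF592, 0.35 for ZNF106, 0.36 for ZNF500, 0.37 for ZNF362, 0.59 for ZNF532, 0.62 for ZNF84, 0.72 for ZNF385A, 0.82 for ZNF407, 0.82 for ZNF684, 0.89 for ZNF483, 0.97 for ZNF771 and 0.99 for ZNF276. ZNF362 was at -1.86 without JMC45 replicate 1 and at 0.018 without JMC45 replicate 2. The cause was not tested.

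With the replicate number as a block, 191 of the 194 genes were lower, with a median of -1.65. Over all genes the block gave 613 higher and 11380 lower. Of the 62 named genes only ZNF362 changed its call under the block (limma adjusted p = 0.0364). The labels do not say whether same-numbered libraries belong together. Deviations of same-numbered libraries correlated at -0.05 over the tested genes, which cannot settle this with 2 libraries in each group. Without depth, no counting error can be given for genes of low TPM.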
